A study of Mus musculus with 5 samples.

Results

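Otx2, Pou3f1, Zic2, Zic5, Foxd3, Utf1 and Fgf5 are regulators and marker genes of the epiblast as it leaves the naive pluripotent state, and their transcription was read here as engaged RNA polymerase in mouse embryonic stem cells (MESC) and mouse embryonic fibroblasts (MEF). The 7 genes were taken by symbol from the mm9 annotation, in which 28924 genes are at least 500 bp long. MESC were V6.5 cells, an embryonic stem cell line of C57Bl/6(f) x 129/Sv(m) background at passages 12 to 14, kept on irradiated feeder cells in serum medium with LIF (3 samples). MEF came from a male embryo of the same cross at E13.5 and were used at passage 2, in the same medium with less serum and without LIF (2 samples). The assay was GRO-seq, in which polymerases already on the DNA extend their RNA by a short stretch in isolated nuclei, and the labelled RNA is captured and sequenced. Each cell type was deposited as 1 pooled set of reads with no sample names, so there was no spread between samples. Every difference below therefore lies between 2 pooled libraries, without a replicate check or a p-value. Intervals are exact 95% intervals of counting error only, for the same reason. They treat every read as independent. The reads carry no molecular identifiers, so copies of 1 molecule cannot be told apart and the intervals may be too narrow.

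The naive epiblast of the early embryo passes through a formative to a primed state around implantation, when it loses naive factors and becomes able to enter the germ layers. Otx2 and Pou3f1 encode DNA-binding factors that act at this step, Zic2 and Zic5 encode zinc-finger factors of epiblast and neural tissue, and Foxd3 encodes a forkhead factor that the epiblast and the neural crest need. Utf1 encodes a chromatin-bound factor of undifferentiated cells, and Fgf5 a secreted growth factor that is a classical marker of the post-implantation epiblast. Embryonic stem cells in serum and LIF are known to be a mixture, in which some cells carry marks of the later state. A GRO-seq read is strand-specific and reports polymerase and not stored RNA, and a lower level of polymerase in every cell cannot be told apart from fewer cells that transcribe the gene.

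Sequencing gave 8616592 reads for MESC and 6583644 for MEF. Distinct positions and strands made up 74.4% of the MESC reads and 71.4% of the MEF reads. Levels are given as RPKM, reads scaled to the length of the gene and to the reads of the library outside the mitochondrial genome. Reads more than 10000 bp from any gene gave an intergenic level per strand of 0.0218 RPKM in MESC and 0.0168 RPKM in MEF. Markers went with the labels: Pou5f1 had 286 reads in MESC and 3 in MEF, and Acta2, a contractile gene of fibroblasts, had 19 reads in MESC and 2589 in MEF. All 13 fibroblast and feeder genes on a marker list were measured, of which 11 were 4-fold or more higher in MEF and 0 in MESC, and they summed to 18.6 RPKM in MESC and 286 RPKM in MEF. Postn had 3 reads in MESC and 391 in MEF, Col1a1 84 in MESC and 4826 in MEF, and Col3a1 63 in MESC and 1728 in MEF, with Lum at 0 in MESC. Other genes of the list were read in MESC. Fn1 had 1465 reads in MESC and 4448 in MEF, and Dcn 31 in MESC and 81 in MEF, neither of them 4-fold apart. Vim had 418 in MESC and 1747 in MEF. The part that feeder cells had in MESC values was not tested.

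4 stretches of DNA carry the features described below. Each is printed 5′ to 3′ in the direction of its gene, from the mm9 genome. The first 3 run from 250 bases before a transcription start to 49 bases past it, and their capitals mark matches to short promoter motifs on either strand. They are shown because Utf1 had the fullest promoter, because Pou3f1 had many reads and few of them at its start, and because Otx2 had most of its promoter reads at a start inside its longest model. The fourth is the stretch of the Zic5 intron with the most MESC reads, and its capitals mark the 18 bases at which 2 or more MESC reads had their 5′ end.
Utf1 start, chr7:147129438-147129737 (plus strand): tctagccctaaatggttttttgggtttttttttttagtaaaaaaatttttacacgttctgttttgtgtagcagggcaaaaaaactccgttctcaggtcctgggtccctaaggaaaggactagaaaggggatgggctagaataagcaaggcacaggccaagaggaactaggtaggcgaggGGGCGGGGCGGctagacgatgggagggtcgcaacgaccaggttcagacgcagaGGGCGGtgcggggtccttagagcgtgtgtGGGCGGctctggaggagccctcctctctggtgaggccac
Pou3f1 start, chr4:124334646-124334945 (plus strand): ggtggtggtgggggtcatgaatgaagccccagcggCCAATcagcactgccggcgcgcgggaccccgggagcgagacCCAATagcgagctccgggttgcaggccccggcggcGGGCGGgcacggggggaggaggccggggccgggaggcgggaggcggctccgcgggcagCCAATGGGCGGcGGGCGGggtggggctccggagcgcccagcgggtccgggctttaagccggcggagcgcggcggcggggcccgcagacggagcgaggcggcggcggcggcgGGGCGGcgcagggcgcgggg
Otx2 inner start, chr14:49284872-49285171 (minus strand): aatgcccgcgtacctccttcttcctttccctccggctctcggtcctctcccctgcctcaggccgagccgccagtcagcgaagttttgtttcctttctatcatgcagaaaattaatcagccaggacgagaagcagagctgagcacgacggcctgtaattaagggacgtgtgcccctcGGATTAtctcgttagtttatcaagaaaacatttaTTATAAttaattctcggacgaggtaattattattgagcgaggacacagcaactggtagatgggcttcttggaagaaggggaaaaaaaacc
Zic5 intron, chr14:122862093-122862392 (minus strand): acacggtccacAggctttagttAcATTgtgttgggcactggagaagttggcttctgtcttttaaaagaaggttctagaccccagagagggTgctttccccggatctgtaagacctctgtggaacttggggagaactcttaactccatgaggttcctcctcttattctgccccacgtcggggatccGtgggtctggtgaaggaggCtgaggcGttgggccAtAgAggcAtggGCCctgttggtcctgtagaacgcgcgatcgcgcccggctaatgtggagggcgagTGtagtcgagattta

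All 7 genes were read above the intergenic level in MESC, and Zic2, Zic5 and Fgf5 were the 3 of 7 read above it in MEF. Over the whole gene, from start to annotated end on the sense strand, the 7 genes held 983 reads in MESC and 84 in MEF. A gene was measured with at least 20 whole-gene reads in a library and no overlapping gene on its strand, and it passed the 4-fold mark when the densities differed by 4-fold or more. Of the 12831 genes measured, 10.2% passed the mark toward MESC and 5.91% toward MEF. Of the 7 genes 6 were measured, and all 6 passed toward MESC. Foxd3 was not, because it had under 20 reads and holds a predicted miRNA model of 89 bp with 0 reads, and it is described by its counts. The median of the 7 genes was 7.60-fold higher in MESC, with counts under 3 set to 3, against 1.20-fold over all genes tested.

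Otx2, a homeobox factor of epiblast and forebrain, spans chr14:49277846-49287188 on the minus strand and has 5 exons in its longest transcript. It had 147 reads in MESC and 1 in MEF, which is 1.84 RPKM (1.55 to 2.16) in MESC and 0.0163 RPKM in MEF. The ratio was 113 (19.9 to 4481). Pou3f1, a POU factor also known as Oct6, is a single-exon gene of 3004 bp at chr4:124334896-124337899 on the plus strand. It had 66 reads in MESC and 0 in MEF. Against the floor of 3 reads it was 16.9-fold higher in MESC, and the exact interval of the ratio began at 13.3. Of the 7 genes these are the homeobox and POU factors, and MEF gave them 1 read in all.

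Zic2 and Zic5 are neighbours on chromosome 14 that run away from each other, with their starts 9758 bp apart. Zic2 (chr14:122874657-122879074, plus strand, 3 exons) had 141 reads in MESC and 21 in MEF, and the ratio was 5.15 (3.24 to 8.58). Zic5 (chr14:122856017-122864899, minus strand, 2 exons) had 347 reads in MESC, the most of the 7 genes, and 35 in MEF, and the ratio was 7.60 (5.36 to 11.1). The pair was thus read in both cell types and higher in MESC. In MEF the level of Zic2 was 0.723 RPKM (0.448 to 1.11), higher than that of 71.3% of all genes counted, and Zic5 stood above 68.4% of them.

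Foxd3, a single-exon gene of 2373 bp at chr4:99322990-99325362 on the plus strand, had 19 reads in MESC and 1 in MEF. The ratio was 14.6 with a wide interval of 2.32 to 605. Utf1 (chr7:147129688-147131008, plus strand, 2 exons) is the shortest of the genes at 1321 bp and had 105 reads in MESC and 0 in MEF. Against the floor of 3 reads it was 26.8-fold higher in the stem cells, and the exact interval began at 21.4. Fgf5 (chr5:98683203-98706049, plus strand, 3 exons), the only secreted ligand of the group, had 158 reads in MESC and 26 in MEF over its 22847 bp. Its ratio was 4.66 (3.06 to 7.35), the lowest of the 7. The intervals of Fgf5, Zic2 and Foxd3 reached below 4. Scaled by TMM or by the median ratio of all genes, the Fgf5 log2 ratio was 1.97 and 1.95, under the 4-fold mark.

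**Figure D1:**
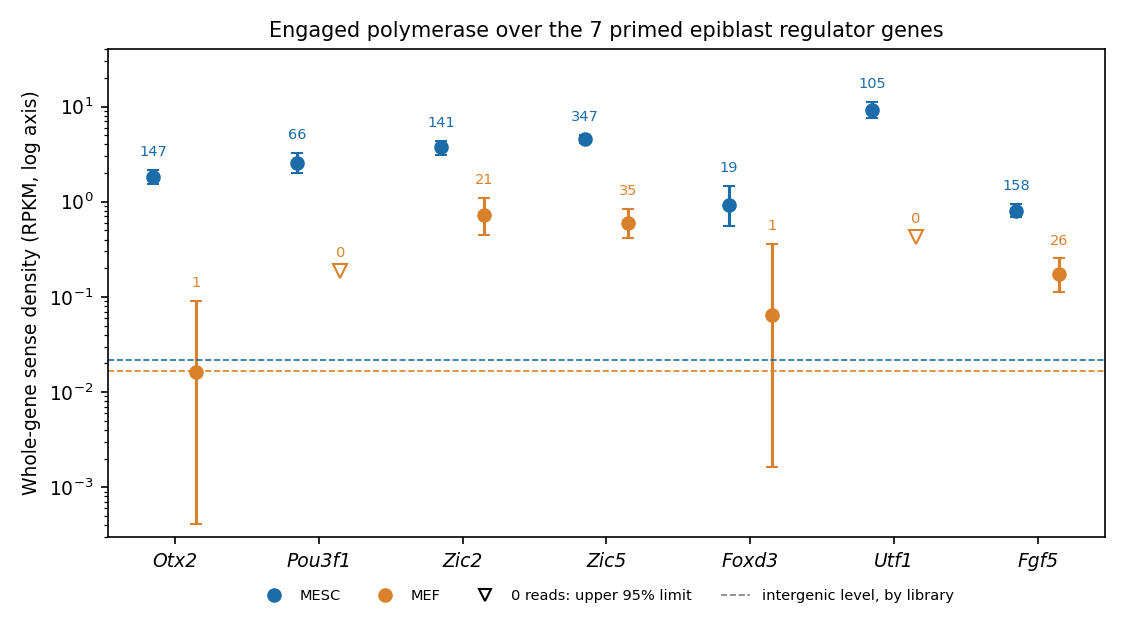
Whole-gene sense density of the 7 genes in MESC and MEF (RPKM, log axis), with exact 95% Poisson intervals, the read count above each point and the intergenic level of each library as a dashed line. A triangle marks the upper limit of that interval where a library had 0 reads. In MESC every gene lies above its dashed line, while in MEF the intervals of Zic2, Zic5 and Fgf5 alone do.

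Per length, the order in MESC was Utf1 at 9.27 RPKM (7.59 to 11.2), Zic5 at 4.56, Zic2 at 3.72, Pou3f1 at 2.56, Otx2 at 1.84, Foxd3 at 0.934 and Fgf5 at 0.807 RPKM. The density of Utf1 was 2.04 times (1.62 to 2.54) that of Zic5, and the density of Otx2 1.97 times (1.21 to 3.36) that of Foxd3. The steps between were smaller, with Zic5 at 1.22 times (1.004 to 1.499) Zic2, Zic2 at 1.45 times (1.08 to 1.98) Pou3f1 and Pou3f1 at 1.40 times (1.03 to 1.88) Otx2. For Foxd3 over Fgf5 the quotient was 1.16 with an interval that held 1 (0.679 to 1.87). Utf1 had a higher density than 98.9% of all genes counted in MESC and Fgf5 a higher density than 70.8%. In MEF the order began with Zic2 and Zic5, whose quotient of 1.21 had an interval that held 1, followed by Fgf5 at 0.173 RPKM, below Zic5 without overlap. The highest MESC level, that of Utf1, thus belonged to a gene with 0 reads in MEF, for which the interval allowed up to 0.425 RPKM.

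The MESC library held reads of 35 and 36 bases and the MEF library reads of 35 bases only. The labels do not say whether this split follows samples or sequencing runs. Fgf5 had 55 MESC reads of 35 bases and 103 of 36 bases, which is a 1.62-fold (1.16 to 2.29) higher density among the longer reads. Zic5 had 202 and 145, Zic2 82 and 59, Pou3f1 42 and 24, and Foxd3 14 and 5, each with a lower density among the 36-base reads and an interval below 1. Otx2 with 77 and 70 and Utf1 with 48 and 57 did not differ beyond counting error. With 35-base MESC reads alone the Fgf5 log2 ratio was 1.81, under the 4-fold mark, and the other 5 measured genes stayed past it.

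At the starts of the longest models, Utf1 had the most promoter reads of the 7 genes. In the promoter window, from 50 bp before to 300 bp after the start, it had 52 reads in MESC and 0 in MEF. With the MEF count set to the floor of 3 reads the density was 13.3-fold higher in MESC, with an exact interval from 10.4 upward. It was the only one of the 7 genes with 20 promoter reads in a library. Of the 4592 promoters with that many reads, 6.58% passed the 4-fold mark toward MESC and 2.96% toward MEF. Zic5 had 15 promoter reads in MESC and 0 in MEF. Otx2 and Pou3f1 had 5 each in MESC and 0 in MEF, Foxd3 3 in MESC and 0 in MEF, Zic2 3 in MESC and 1 in MEF, and Fgf5 1 in MESC and 0 in MEF. All 7 windows together had 84 reads in MESC and 1 in MEF.

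The pausing index, promoter density over the density from 300 bp to the gene end, compares the start with the body within a library. Utf1 had an index of 2.85 (1.91 to 4.26) in MESC. The other 6 had indices between 0.255 for Zic2 and 1.11 for Foxd3, and that of Zic2 had an interval wholly below 1 (0.0520 to 0.761). Sense reads of Zic2 were also dense before this start, with 19 and 12 in MESC in the 250-bp bins that begin 1000 and 750 bp before it. From the annotated start of Zic2 with the most promoter reads the index was 0.783, with an interval that held 1 (0.294 to 1.78). The low Zic2 index may thus depend on the start used. Over 13248 genes with at least 10 body reads in MESC the median index was 3.61, and 63.4% of them had an index of 2 or more. The upper limits for Pou3f1 (1.56), Zic5 (1.84) and Zic2 lay below 2. These 3 genes thus had less polymerase at the annotated start, relative to their body, than most genes in the library. The Zic5 body includes an intron bin described below with 122 MESC reads, which lowers its index. No index was computed without that bin. In MEF the 7 windows held 1 read, so no index could be read there.

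For Otx2 the annotated start matters. The gene has 7 annotated starts, and the one of its longest transcript held 5 promoter reads in MESC. The start 2267 bp further in, at chr14:49284921, held 21 in MESC and 1 in MEF, and with it the index was 4.41 (2.60 to 7.14) in MESC. This start was picked from the 7 because it had the most promoter reads in these data. The choice favours a high index, and the interval does not allow for it. The fullest 500-bp bin of the gene covers this start and overlaps its promoter window, with 27 reads in MESC and 1 in MEF, a ratio of 20.7 (3.41 to 848). The promoter log2 ratio from that start was 2.42 with the MEF count set to 3, past the 4-fold mark, against 0.35 from the longest model with its 0 MEF reads also set to 3. The stretch before this start printed above holds TATAA on both strands, at 39 and 40 bases before the start, and TAATCC on the opposite strand, the core letters that Otx proteins bind.

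**Figure D2:**
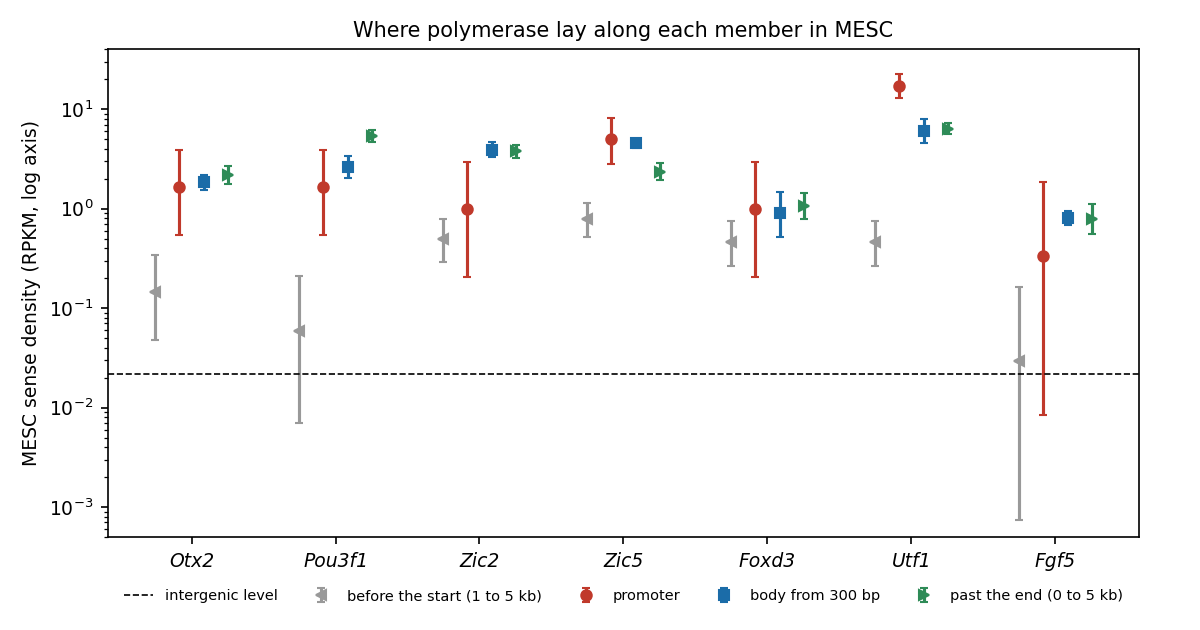
MESC sense density (RPKM, log axis) of each gene in 4 windows, with exact 95% Poisson intervals, where grey is 1 to 5 kb before the start, red the promoter, blue the body and green the 5 kb past the end. At the starts of the longest models, Utf1 is the gene whose promoter lies above its body, and Pou3f1 the gene whose density past the end lies above its body, in each case with intervals that do not overlap.

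Upstream of the start and on the opposite strand, Zic5 had the most reads of the 7 genes. In the 500 bp upstream it had 38 antisense reads in MESC and 7 in MEF, a ratio of 4.16 (1.84 to 11.04), and its interval held values below the 4-fold mark. Of the 6571 upstream windows with at least 10 antisense reads in a library, 8.00% passed the mark toward MESC and 3.01% toward MEF. None of the other 6 genes had 10 antisense reads there: Utf1 had 5 in MESC and 1 in MEF, Foxd3 5 in MESC and 0 in MEF, and Otx2 and Pou3f1 0 in both libraries. Over 2000 bp the counts were 102 in MESC and 11 in MEF for Zic5, and 38 in MESC and 8 in MEF for Zic2. Those of Zic2 lay mainly in the 250-bp bins that begin 1750 and 1500 bp before its start, with 14 and 16 reads in MESC and 4 and 3 in MEF. The annotated start of the lincRNA gene 2610035F20Rik is 1856 bp away on that strand, and this gene had 24 reads in MESC and 5 in MEF. Foxd3 had 18 in MESC and 0 in MEF, and the annotated transcript Gm12688, which starts 1316 bp away on the opposite strand, had 12 in MESC and 0 in MEF.

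Of all promoters past the 4-fold mark, 68.9% were higher in MESC, and of upstream antisense windows 72.7% were. With TMM scaling the shares were 58.1% for promoters and 57.5% for antisense windows. It lowered every MESC over MEF log2 ratio by 0.25, which took Zic5 antisense under the 4-fold mark and left Utf1 promoter past it. The Zic5 antisense ratio also fell short of the mark with each position counted once, with 36-base MESC reads alone, and with ribosomal-DNA-like loci taken out of the total.

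Along Zic5, polymerase was concentrated inside the intron. The 500-bp bin from 2500 bp after the start held 122 reads in MESC and 18 in MEF, a ratio of 5.20 (3.15 to 9.06), and took 35.2% of the MESC reads of the gene. Within it the 300 bases printed above, none of them exonic, had 99 reads in MESC and 11 in MEF. The MESC reads lay at 64 positions, with at most 6 at any of them. Exons of Zic5 had 0.293 times (0.228 to 0.375) the read density of its intron in MESC, from 88 exonic and 259 intronic reads. In Otx2 the exon to intron ratio was 1.45 (0.967 to 2.13), in Fgf5 1.46 (0.902 to 2.26) and in Zic2 0.895 (0.635 to 1.27), each with an interval that held 1. Antisense reads of Zic5 were fullest in its first 500 bp, with 39 in MESC and 4 in MEF.

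Past the annotated end, Pou3f1 had more polymerase than over the gene itself. The 5 kb beyond its end held 230 reads in MESC and 4 in MEF, a ratio of 44.1 (17.0 to 163). In MESC the density there was 2.09 times (1.59 to 2.80) that of the gene. The fullest 500-bp bin began 1497 bp past the end, with 91 reads in MESC and 0 in MEF. Utf1 had 273 reads past its end in MESC and 4 in MEF, at 0.687 times (0.547 to 0.869) its own gene density in MESC. Over 1264 genes shorter than 5000 bp the median of this quotient was 0.405 in MESC, and 16.4% of them had a value above 1.

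Zic2 had 162 reads past its end in MESC and 26 in MEF, and its fullest bin lay 1083 bp past the end with 56 reads in MESC and 3 in MEF. Foxd3 had 46 reads past its end in MESC and 6 in MEF, and its fullest bin also lay past the end, 628 bp beyond it. Over these 5 kb the Foxd3 ratio was 5.88 (2.50 to 16.8), on more reads than the gene itself gave. The quotient past the end over the gene was 1.02 for Zic2, 1.15 for Foxd3, 1.18 for Otx2, 0.983 for Fgf5 and 0.517 for Zic5 in MESC, and all but that of Zic5 (0.410 to 0.647) had intervals that held 1. The median over 10411 genes of any length was 1.01 in MESC. No annotated gene on the same strand begins within 5000 bp past the ends of Pou3f1, Zic2, Foxd3 or Utf1, and the nearest for Utf1, the lincRNA gene Gm16201, begins 5287 bp past it.

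Reads before the start show what a short gene could receive from its surroundings. From 1 to 5 kb before the start on the sense strand, Utf1 had 16 reads in MESC and 0 in MEF, where Kndc1 ends 2252 bp upstream on the same strand with 59 reads in MESC and 6 in MEF over its whole length. Zic5 had 27 in MESC and 0 in MEF, Zic2 17 in MESC and 3 in MEF, and Foxd3 16 in MESC and 4 in MEF. Otx2, Pou3f1 and Fgf5 had 5, 2 and 1 in MESC and 0 in MEF. The window leaves out the last 1 kb before the start, where Zic2 had further sense reads in MESC. In all 7 genes this density was below that of the body in MESC, as the plot of 4 windows shows, with intervals that overlapped for Foxd3.

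**Figure D3:**
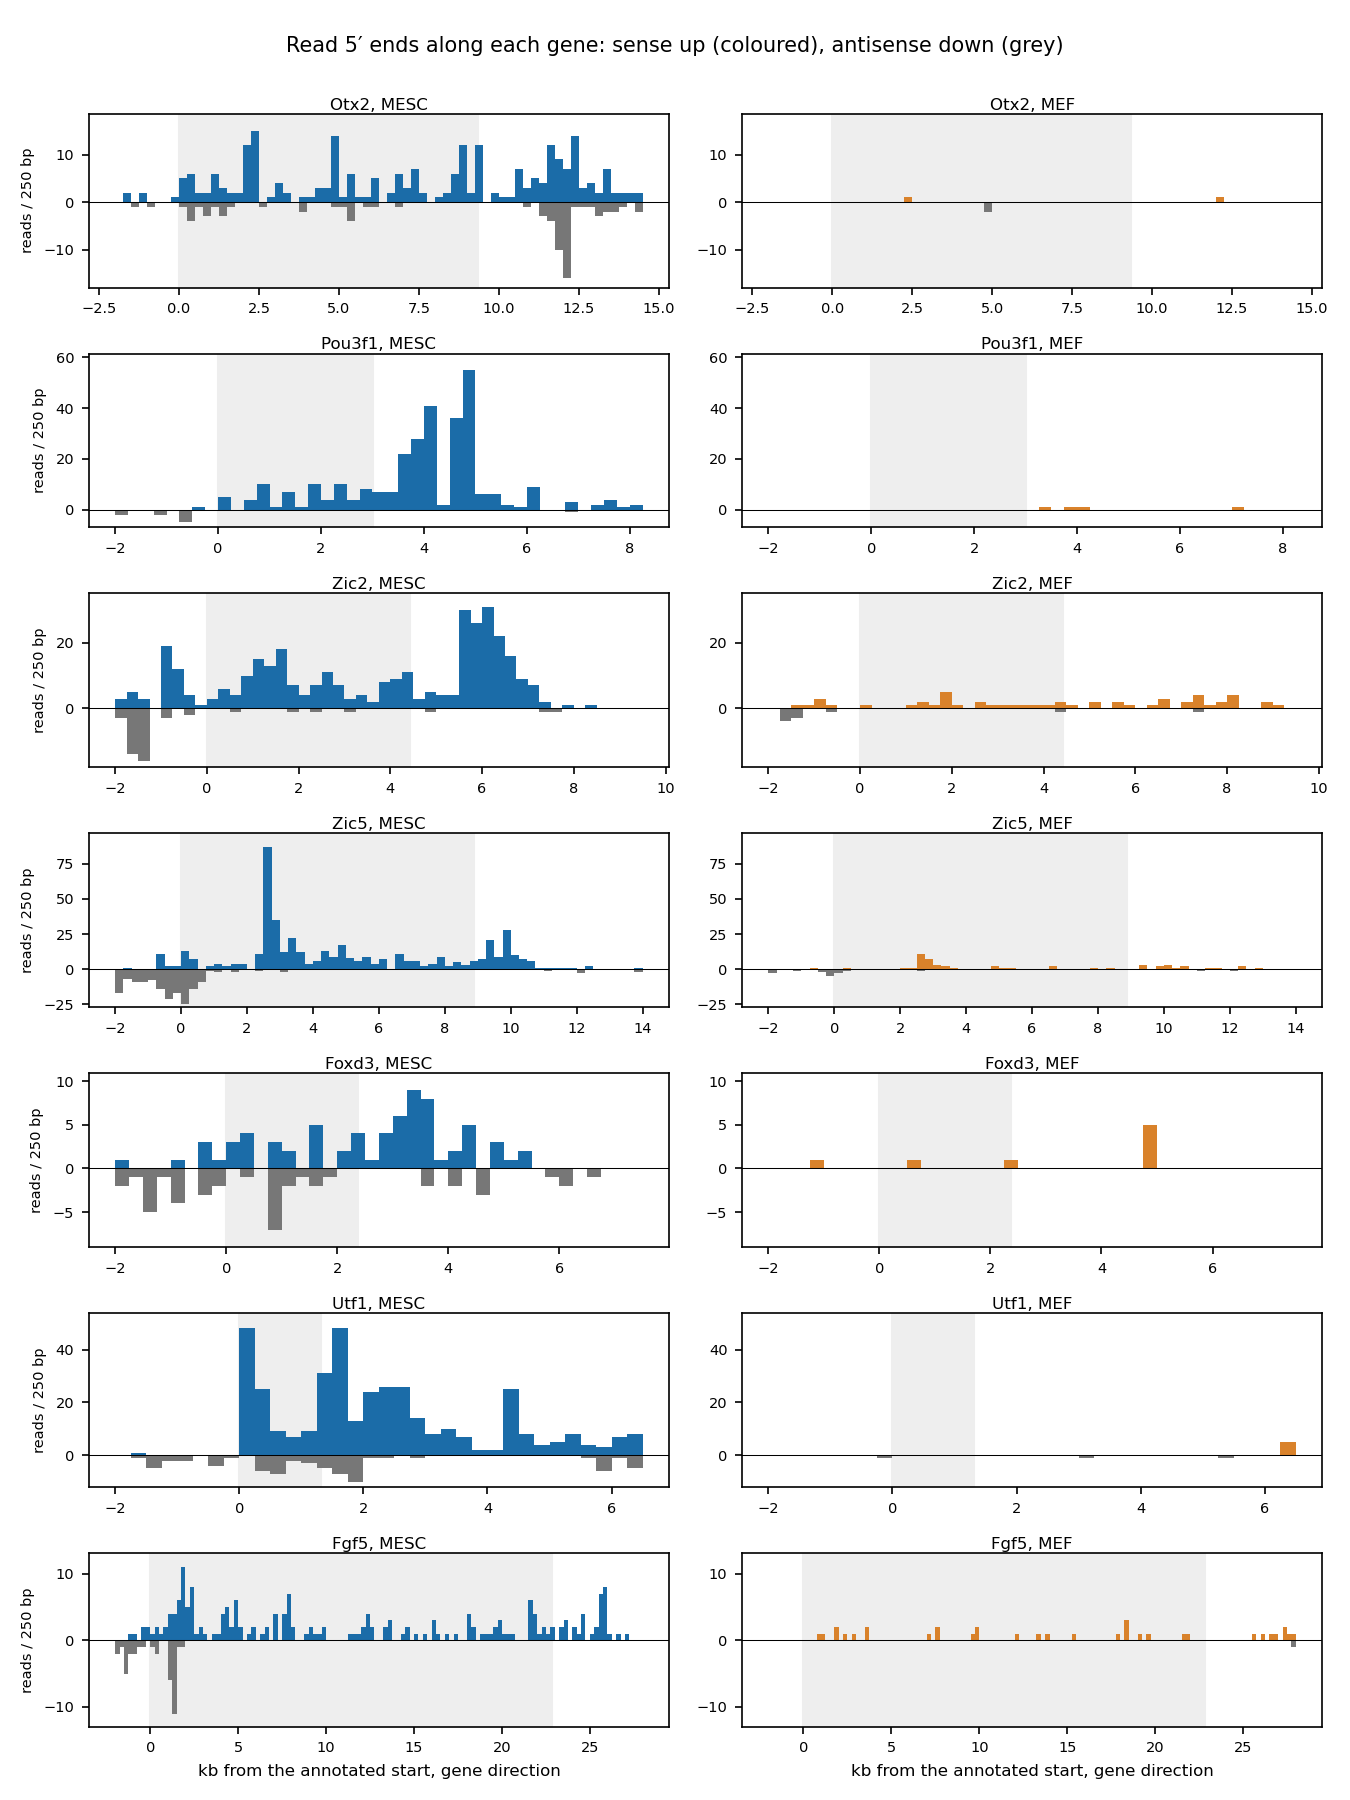
Read 5′ ends in bins of 250 bp along the 7 genes, in MESC on the left and MEF on the right, from 2 kb before the start to 5 kb past the end (x axis in kb, y axis in reads per bin, the same for both libraries of a gene). Sense reads point up in colour, antisense reads down in grey, and the gene is shaded. The peak in the Zic5 intron and the reads past the ends of Pou3f1, Zic2 and Utf1 stand out in MESC.

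The starts of the 7 genes were mostly rich in CpG. In the window of 300 bases around the start, 5 of 7 had a CpG observed to expected ratio above 0.6, against 46.9% of 21801 protein-coding starts, and Otx2 and Zic5 lay below it. GC content ran from 48.3% at the longest Otx2 model to 81.0% at Pou3f1, with a median of 65.7%, against 56% over all protein-coding starts. GGGCGG, the core of the GC box that Sp factors bind, was found on either strand at 4 of 7 starts and at 45.2% of all, with 4 matches each at Utf1, Pou3f1 and Zic2. CCAAT was found at 2 of 7 and 37.8% of all, TATAA at 1 of 7, at Fgf5 just past the start, and 22.9% of all, TAATCC at 0 of 7 and 6.83%, and the octamer ATGCAAAT at 0 of 7 and 1.69%. At Pou3f1 the last of 3 CCAAT matches, 81 bases before the start, runs straight into a GC box. These counts describe letters in windows and not bound sites.

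Other genes of the same states were set beside the 7, from lists of known markers. Of 26 other formative and primed genes, 21 were measured, of which 13 passed the 4-fold mark toward MESC and 0 toward MEF. Their median log2 ratio was 2.99, against 0.27 over all genes tested. The 4 furthest from zero were Lin28a, an RNA-binding protein gene, with 771 reads in MESC and 0 in MEF, Zscan10 with 540 in MESC and 2 in MEF, Nodal, a TGF-beta family ligand of the epiblast, with 285 in MESC and 2 in MEF, and Tcf15 with 193 in MESC and 0 in MEF. The list held genes that did not differ 4-fold as well, such as Dnmt3a with 746 reads in MESC and 600 in MEF.

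Genes of the naive state were read in the same cells. Of 18 naive genes 14 were measured, 9 passed the mark toward MESC and 0 toward MEF, and the median log2 ratio was 3.14. Among them Tdgf1, a Nodal co-receptor gene, had 1272 reads in MESC and 0 in MEF, Zfp42 256 in MESC and 0 in MEF, Nanog 238 in MESC and 2 in MEF, and Esrrb 330 in MESC and 8 in MEF. The other 5 measured naive genes did not differ 4-fold. Of these, Klf2 had 108 reads in MESC and 86 in MEF, Klf4 36 in MESC and 33 in MEF, and Tbx3 84 in MESC and 137 in MEF. The general pluripotency genes gave 7 of 8 measured past the mark toward MESC, with a median log2 ratio of 6.91. L1td1 had 938 reads in MESC and 0 in MEF, and Sall4, a zinc-finger factor gene, 787 in MESC and 1 in MEF. Some genes stand in more than 1 list, such as Tdgf1 and Lin28a.

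**Figure D4:**
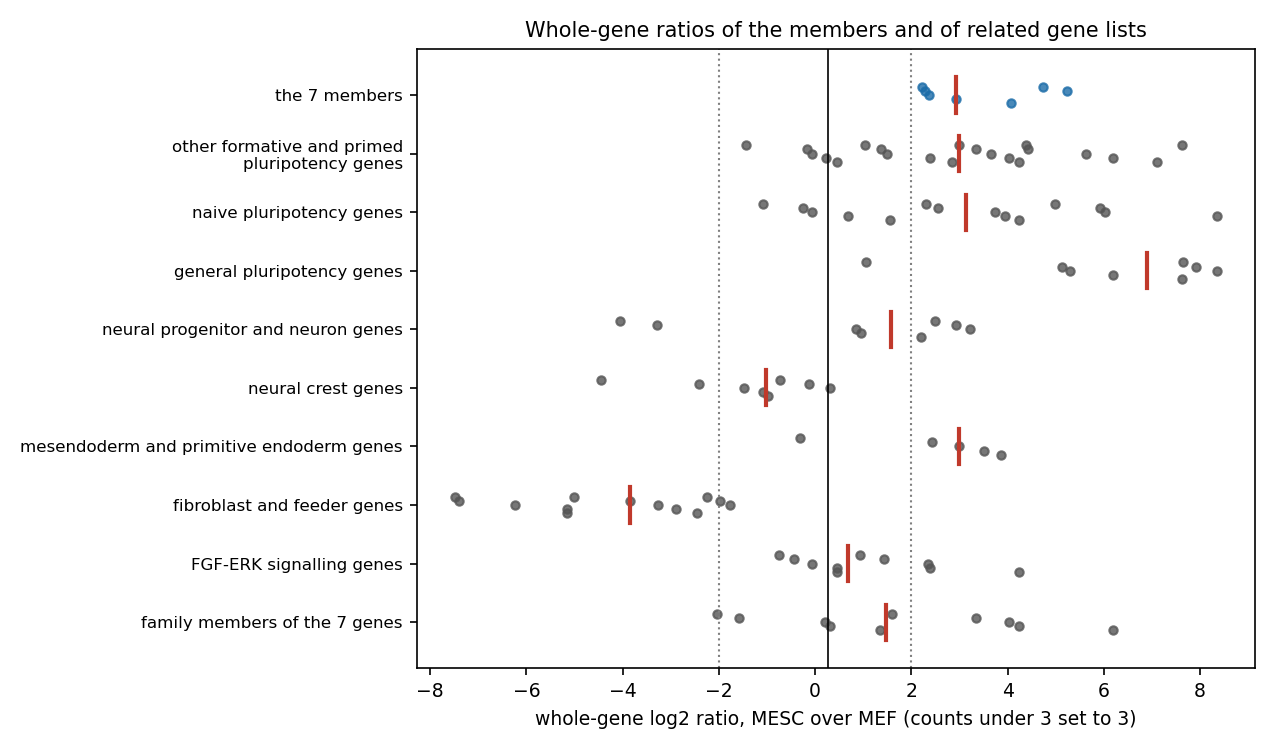
Whole-gene log2 ratio of MESC over MEF, with counts under 3 set to 3, for the 7 genes (blue, Foxd3 included) and for the genes of 9 lists (grey). The red bar is the median, the solid line the median of all genes tested and the dotted lines the 4-fold marks. The 7 genes all lie past the right dotted line, at log2 ratios of 2.22 to 5.23, and the fibroblast list lies at the left.

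Several of the 7 genes also serve neural tissue and neural crest, so markers of those tissues were counted. Of 18 neural progenitor and neuron genes 8 were measured, 4 passed toward MESC and 2 toward MEF, and the list summed to 1998 reads in MESC and 819 in MEF. Stmn2 had 736 reads in MESC and 61 in MEF and Pax6 238 in MESC and 24 in MEF, whereas Dcx had 1 in MESC and 38 in MEF and En1 7 in MESC and 52 in MEF. En2 had 22 reads in MESC and 0 in MEF, and Hesx1, with 1 in MESC and 0 in MEF, was not measured. Of 10 neural crest genes 8 were measured, 0 passed toward MESC and 2 toward MEF, and the list summed to 543 reads in MESC and 1270 in MEF. Snai2 had 5 in MESC and 84 in MEF, and Ets1 181 in MESC and 736 in MEF. Ets1 thus gave 736 of the 1270 MEF reads of the list. Twist1 had 16 in MESC and 34 in MEF, and Pax3 100 in MESC and 162 in MEF. Sox10 had 18 in MESC and 23 in MEF, and Tfap2a leaned the other way with 83 in MESC and 51 in MEF. Neither Sox10 nor Tfap2a differed beyond counting error. The part of such cells in the MEF reads of Zic2 and Zic5, or in the MESC reads of the 7 genes, was not tested.

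Of 10 mesendoderm and primitive endoderm genes 5 were measured, and 4 passed the mark toward MESC and 0 toward MEF. Lama1 had 607 reads in MESC and 32 in MEF, Gata4 148 in MESC and 10 in MEF, T, the Brachyury gene of the primitive streak, 31 in MESC and 0 in MEF, and Sox17 21 in MESC and 0 in MEF. The list summed to 901 reads in MESC and 121 in MEF, and Foxa2 was at 0 in both. Eomes had 14 reads in MESC and 2 in MEF, Mixl1 2 in MESC and 0 in MEF, Gsc 2 in MESC and 6 in MEF, and Cer1 1 in MESC and 0 in MEF, all under the minimum. T and Sox17 were thus read at low levels beside the 7 genes, T at 0.448 RPKM and Sox17 at 0.447 RPKM in MESC.

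Fgf5 signals through FGF receptors to ERK, and 11 genes of that pathway were counted. Of 10 measured, 3 passed the mark toward MESC and 0 toward MEF, with a median log2 ratio of 0.69. Fgf4, the main FGF ligand of embryonic stem cells, had 74 reads in MESC and 0 in MEF. Etv5, an ETS factor gene induced by FGF, was 5.24-fold (4.66 to 5.91) and Spry4, a feedback inhibitor gene, 5.11-fold (4.03 to 6.55) higher in MESC, and Spry2, another such inhibitor gene, 2.72-fold (2.31 to 3.20). Fgfr2 was left out because its longest annotated model overlaps other genes.

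Within their own families the 7 genes did not all move with their relatives. Of 19 family members 10 were measured, 4 passed the mark toward MESC and 1 toward MEF. Zic1 had 13 reads in MESC and 41 in MEF and was 4.11-fold (2.16 to 8.37) higher in MEF, and Zic4 had 31 in MESC and 71 in MEF, with a log2 ratio of -1.58. Zic2 and Zic5 were thus higher in MESC, and Zic1 and Zic4 higher in MEF. Under TMM and median scaling, which lower every ratio by 0.25 and 0.27, these directions stayed. Fgf8 had 64 reads in MESC and 0 in MEF. Otx1 had 6 in MESC and 8 in MEF, and Pou3f3 2 in MESC and 19 in MEF, both under the minimum of 20 reads.

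Likeness was measured for the 3 genes with the most MESC reads, as the distance over 4 values, whole-gene and promoter log2(RPKM + 0.1) in 2 libraries. The nearest genes to Zic5 were the pseudogenes Gm13223 at 0.204 and Gm9531 at 0.687. Those nearest to Fgf5 were 4933415A04Rik at 0.147 and March9 at 0.151, and those nearest to Otx2 were Gtsf1l at 0.218 and Gm9847 at 0.225. With 2 libraries such a distance shows equal levels only, and the nearest genes to Otx2 had 13 and 9 whole-gene reads in MESC.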

How the data were processed

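GRO-seq libraries of 3 MESC and 2 MEF samples were grouped by sample title. Per the series' design text, the authors aligned reads with Eland to mm9 and removed reads in regions similar to rRNA. Per the file headers, libraries of a cell type were pooled and aligned without repeat masking. The Eland version, and how duplicates and multiple matches were handled, were not given in the sources used here. In the deposited files each read is a line with the value 1, that is, an unnormalized read count. Loci similar to ribosomal DNA still held 11.5% of MESC and 16.4% of MEF reads, and these stayed in the scaling total (8571395 reads in MESC, 6571116 in MEF).

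Reads carry no sample names, so the edgeR quasi-likelihood test planned for separable samples was not run, and each cell type is 1 library. Whether the samples of a group were separate cultures is not stated. Read positions were checked against NCBIM37 (mm9): among reads sampled at every 400th line, 92.6% of those in MESC and 95.6% in MEF matched with at most 2 mismatches when the listed position was taken as the 5′ end on either strand. Genes were GENCODE models, 1 per symbol, the longest transcript. Of 28924 genes of at least 500 bp, 3452 with same-strand overlap were left out and 25472 kept. Reads were counted by 5′ end and strand, whole gene (minimum 20 reads in a library), promoter (20) and 500 bp upstream antisense (10). Ratios compare densities, with exact conditional Clopper-Pearson 95% intervals, and counts under 3 set to 3 for the 4-fold mark. Sequences were read from the NCBIM37 genome.

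The 7 genes and the 9 gene lists were chosen with earlier results of these data known. Of each list, up to 4 measured genes with the largest absolute whole-gene log2 ratio are named, apart from items not reported here. Others (Dnmt3a, Klf2, Klf4, Tbx3, Zic1, Zic4, Otx1, Pou3f3, Fgfr2, En2, Hesx1, Foxa2, Eomes, Mixl1, Gsc, Cer1, Lum, Fn1, Dcn, Vim, Sox10, Tfap2a) were named after their values were seen. Of the list symbols, 1 (Sox1) stayed unmatched. Alternatives were other scalings (edgeR 4.0.16 TMM factors in R 4.3.3), each position once, read lengths, floors, minimums, windows and starts. Scripts used numpy 2.4.6, scipy 1.17.1 and pysam 0.24.0, and were tested on simulated counts.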

Additional observations from a re-analysis of the deposited data

How the results depend on the processing

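No paired analysis was possible because sample names are missing from the pooled reads, and for the same reason neither leaving out a replicate nor a replicate block could be run. Over the whole gene 6 of the 7 genes passed the 4-fold mark toward MESC. The count was 5 under TMM, under median scaling and with 35-base MESC reads, where the Fgf5 log2 ratio was 1.97, 1.95 and 1.81. Over 12 alternatives the whole-gene log2 ratio ran from 4.76 to 6.82 for Otx2, 1.81 to 2.50 for Fgf5, 3.52 to 5.66 for Pou3f1, 2.01 to 2.69 for Zic2, 2.57 to 3.25 for Zic5, 3.76 to 6.33 for Utf1 and 1.25 to 3.87 for Foxd3. Foxd3 passed the 4-fold mark in 11 of them. A minimum of 50 reads, no minimum and keeping overlapping genes only select genes, so they could not change any ratio. For Foxd3, with 1 annotated start, the choice of start could not either. No whole-gene ratio of the 7 genes changed direction.

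The count of promoters past the mark toward MESC, 1 of the 7 genes, was 2 with the start that had the most promoter reads, since Otx2 was added. The count of upstream antisense windows, 1, was 0 under TMM, median scaling, the total without ribosomal-DNA-like loci, each position once and 36-base MESC reads. Zic5, the gene counted, stood near the mark at a log2 ratio of 2.06. TMM, median scaling and the total without ribosomal-DNA-like loci shifted every antisense log2 ratio by -0.249, -0.267 and -0.081. Why it also fell short with each position once and with 36-base reads was not tested. The count of pausing indices of 2 or more, 1, was 2 with that other start and 0 with the body from 1000 bp, for which Utf1 is too short.

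Over all genes, whole-gene calls higher in MESC numbered 1310, and 803 with a minimum of 50 reads. Promoter calls higher in MESC numbered 302, and 139 with each position once, 115 with 35-base and 170 with 36-base reads, and 86 with a minimum of 50. Promoter calls higher in MEF numbered 136, and 76 with each position once, 38 with that minimum and 269 with none. Antisense calls higher in MESC numbered 526, and 347 under TMM, 341 under median scaling, 287 with each position once, 875 with a floor of 1 read and 809 over 2000 bp. Antisense calls higher in MEF numbered 198, and 105 with 35-base and 107 with 36-base reads, 78 with a minimum of 20, 312 over 1000 bp and 411 over 2000 bp. Depth limits the promoter and antisense windows most, where most of the 7 genes had under 10 reads.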
